A study of Mus musculus with 8 samples.

Results

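The genes described here regulate the formation of fat cells or carry out lipid uptake and storage. They were the rows of a comparison of mutant and control mouse back skin whose symbol was Pparg, Cebpa, Cebpb, Fabp4, Lpl, Plin1, Cd36, Ebf2 or Zfp423. Of these 9 symbols 8 had a row among 20152 genes, and Plin1 was not analysed here. RNA was sequenced from back skin of embryos at E14.5, from 4 samples labelled mutant (GNAQ R183Q) and 4 labelled wild-type control. GNAQ encodes a Gq-class G protein alpha subunit. The labels used here do not say which cells made the changed protein, by which promoter, or the strain, sex or litter of the embryos. The samples are described as biologically independent, and all carry the same batch label. Keratinocyte and fibroblast markers were abundant, with Krt5 at 1106 CPM and Col1a1 at 1667 CPM on average. The values are 1 mean, fold change and p-value per gene from the authors' comparison, with mean and median z-scores per genotype, and no value per library was used, which leaves the depth per library unknown.

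Fat cells form from mesenchymal progenitors in steps. Zfp423 and Ebf2 mark or commit progenitors, with Ebf2 linked to the brown fat lineage. Cebpb is induced early and promotes expression of Pparg and Cebpa, which keep each other on and switch on genes of lipid handling. Among those, Lpl releases fatty acids from lipoproteins, Cd36 takes them up, Fabp4 binds them in the cytoplasm and Plin1 coats the lipid droplet. In skin the dermal white fat layer appears late in gestation. Several of these genes also act elsewhere: C/EBP proteins in differentiating keratinocytes, Cd36 and Fabp4 in capillary endothelium, and Lpl and Cd36 in muscle.

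Promoter windows are printed for the 3 regulators with the lowest fold changes. For Pparg only the most downstream start is printed, the 1 of its 3 windows with a C/EBP match. RefSeq windows on GRCm38.p6, from 250 bases before to 50 after an annotated start, were found for 6 of the 9 genes, with 3 starts for Pparg and 2 for Zfp423. The expression table counts each gene as a whole and does not tell the Pparg starts apart. Capitals mark a match, on either strand, to the C/EBP motif TTGCNNAA, to TATAAA, or to the PPAR-RXR direct repeat (AGGTCA, any base, AGGTCA), and each sequence reads 5′ to 3′ on the gene's strand.
Pparg, most downstream start, chr6:115421816-115422115, plus strand: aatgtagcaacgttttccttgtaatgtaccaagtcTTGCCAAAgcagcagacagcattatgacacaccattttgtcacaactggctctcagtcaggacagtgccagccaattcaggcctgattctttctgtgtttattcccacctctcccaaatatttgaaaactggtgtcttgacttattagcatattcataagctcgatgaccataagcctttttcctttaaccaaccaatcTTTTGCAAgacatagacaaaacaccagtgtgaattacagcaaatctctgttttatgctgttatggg
Cebpa, chr7:35119043-35119342, plus strand: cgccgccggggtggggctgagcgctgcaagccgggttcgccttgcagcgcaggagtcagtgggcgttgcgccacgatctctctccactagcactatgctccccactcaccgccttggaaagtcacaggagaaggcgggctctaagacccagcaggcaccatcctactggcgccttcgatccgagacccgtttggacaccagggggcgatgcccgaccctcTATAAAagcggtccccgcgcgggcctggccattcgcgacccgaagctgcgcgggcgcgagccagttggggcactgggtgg
Cebpb, chr2:167688665-167688964, plus strand: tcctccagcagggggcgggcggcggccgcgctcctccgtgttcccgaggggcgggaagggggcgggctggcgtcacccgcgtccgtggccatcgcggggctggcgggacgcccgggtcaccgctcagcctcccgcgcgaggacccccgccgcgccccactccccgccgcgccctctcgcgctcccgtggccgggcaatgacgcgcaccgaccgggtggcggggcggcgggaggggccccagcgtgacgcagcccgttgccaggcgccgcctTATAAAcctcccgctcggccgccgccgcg
The downstream Pparg window held C/EBP matches at positions -215 to -208 and -16 to -9, counted with the start base as 1. Cebpa had TATAAA at -30 to -25, and Cebpb had it at 22 to 27. The C/EBP motif occurred in 3 of the 9 windows of the set, those of Pparg, Plin1 and Zfp423 with 1 start each, against 10.8% of 32851 RefSeq windows of the same length. TATAAA occurred in 3 of 9 windows, against 13.6%. The PPAR-RXR repeat was in 0 of 9, against 0.0396%. GC boxes (GGGCGG) were in 6 of 9 windows and CCAAT in 3, against 35.7% and 37.4%. Apart from neighbouring GC boxes in Cebpb, the listed matches within the printed windows did not overlap one another. These are letter matches and no binding was measured.

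The master regulators of adipogenesis, Pparg and Cebpa, were lower in GNAQ R183Q skin, while Lpl, Cd36 and Fabp4, the measured lipid uptake and storage genes of the set, did not pass the test. Pparg fell 1.67-fold and Cebpa 1.58-fold in the authors' deposited table. Of the 8 measured genes 2 fell and 0 rose at an authors' adjusted p (DESeq2, Benjamini-Hochberg over all genes) under 0.05. Over all genes of the table, 2.46% of genes fell and 0.63% rose by that rule, 3.09% in all. At an unadjusted p of 0.05, Cebpb joined them, 3 of 8 lower and 0 higher, against 8.23% lower and 5.94% higher over all genes. The median log2 fold change of the 8 was -0.31, against 0.01 over all genes, and 6 of the 8 were negative, against 49% of all genes. The 6 include Zfp423, at -0.01, whose mean z-scores had the opposite direction. Of 13 markers of suprabasal keratinocytes, the differentiating epidermal cells in which C/EBP proteins also act, 12 fell, with a summed implied level of 77936 normalized counts in GNAQ R183Q skin and 197517 in wild-type skin, and their part in the falls of Pparg and Cebpa was not tested. With bulk RNA, fewer cells of a type and less RNA per cell cannot be told apart.

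**Figure D1:**
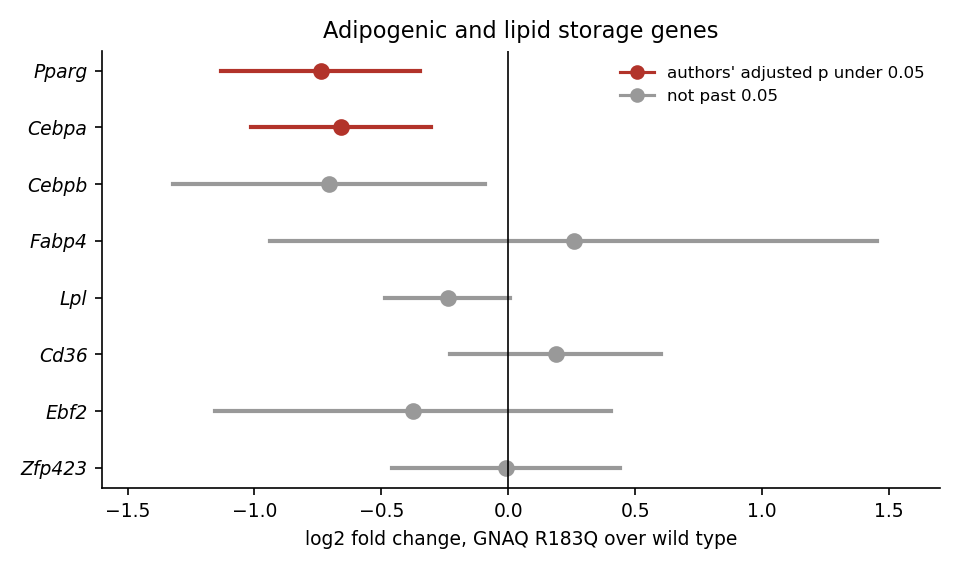
Log2 fold change (horizontal axis, GNAQ R183Q over wild type) for the 8 measured genes, with implied 95% intervals as bars, from 4 samples per genotype. Pparg and Cebpa, in red, passed an adjusted p of 0.05, and the interval of Fabp4 is the widest, from -0.94 to 1.45.

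Pparg encodes the nuclear receptor that is required for fat cell formation. Its mean and its fold change correspond to about 139 normalized counts in GNAQ R183Q skin and 233 in wild-type skin, values implied by the authors' deposited table rather than measured per library. The log2 fold change was -0.74 in the authors' deposited table (implied 95% bounds -1.13 and -0.35, adjusted p = 0.0112), and the gene ranked 394th of all genes by p. The mean z-score of log2 CPM was -0.810 in GNAQ R183Q libraries and 0.810 in wild-type libraries in the authors' deposited table, and the medians were -0.930 and 0.811 in the same order. With these means and medians, no set of 8 z-scores whose squares sum to 7 lets the genotypes overlap, so all 4 GNAQ R183Q libraries lay below all 4 wild-type libraries.

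Cebpa encodes C/EBP alpha, the partner of Pparg in maintaining the fat cell state. The implied levels were 717 normalized counts in GNAQ R183Q skin and 1130 in wild-type skin. The log2 fold change was -0.66 in the authors' deposited table (implied 95% bounds -1.01 and -0.30, adjusted p = 0.0137). The mean z-scores were -0.789 in GNAQ R183Q and 0.789 in wild-type libraries in the authors' deposited table, and the means and medians again leave no overlap between the genotypes. After removal of a trend of fold change on transcript length and GC content, the log2 fold change of Cebpa was -0.44 and its adjusted p 0.208, so the call was lost. The Cebpa transcript used for that correction has a GC content of 62.6%. Pparg, at 50.2% GC, kept its call with an adjusted p of 0.0481.

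Cebpb, the early C/EBP factor, stood at a low level, with implied values of 26.3 normalized counts in GNAQ R183Q skin and 42.9 in wild-type skin. In the authors' deposited table its log2 fold change, -0.71, was close to that of Pparg, but its implied 95% interval ran from -1.32 to -0.09 and the authors' adjusted p was 0.257, from an unadjusted p of 0.0247. The means and medians of its z-scores also leave no overlap of the genotypes, with means of -0.803 in GNAQ R183Q and 0.803 in wild-type libraries in the authors' deposited table. The genotypes were thus apart for 3 of the 8 genes, all lower in GNAQ R183Q, against 3.83% of all genes apart in that direction and 6.39% in either. They overlapped for Fabp4, Cd36 and Zfp423, 3 of the 8 against 43.3% of all genes, and could not be decided for Lpl and Ebf2. Length and GC trend removal brought the fold change of Cebpb to -0.36. Annotated genes on the opposite strand overlap Cebpb (Tmem189), Pparg, Cebpa and Ebf2. The libraries were stranded, but the strand setting of the counting is not given in the sources used here. Reads of such partners therefore cannot be told apart from those of these genes. Tmem189 averaged 795 normalized counts, against 34.6 for Cebpb, and had a log2 fold change of -0.16 (authors' deposited table, adjusted p = 0.548).

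**Figure D2:**
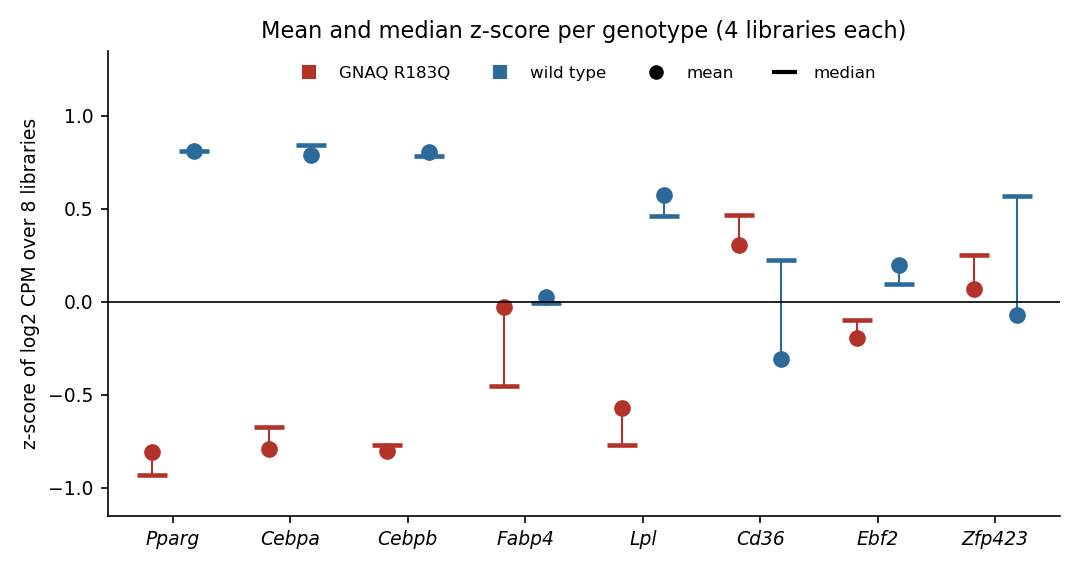
Mean (circle) and median (dash) z-score of log2 CPM over 8 libraries (vertical axis) for each gene, GNAQ R183Q in red and wild type in blue, 4 libraries each. For Pparg, Cebpa and Cebpb the genotypes sit near -0.8 and 0.8, while mean and median part company for Fabp4, Cd36 and Zfp423.

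The commitment factors Zfp423 and Ebf2 did not pass the test. Zfp423, a zinc finger protein of committed preadipocytes, had implied levels of 291 normalized counts in GNAQ R183Q skin and 292 in wild-type skin. In the authors' deposited table its log2 fold change, -0.01, had an implied 95% interval from -0.46 to 0.44. The data are thus compatible with a change anywhere in that range, in either direction. In wild type its z-scores had a mean of -0.07 and a median of 0.57 in the authors' deposited table, which requires at least 1 wild-type library at -1.98 or lower. Ebf2 had implied levels of 85.4 normalized counts in GNAQ R183Q skin and 111 in wild-type skin. Its log2 fold change was -0.38 in the authors' deposited table (implied 95% bounds -1.16 and 0.40, adjusted p = 0.719).

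Among the genes of fatty acid supply and storage, Lpl had the smallest p. Its implied levels were 703 normalized counts in GNAQ R183Q skin and 829 in wild-type skin, and whether the genotypes overlap cannot be read from group values. The log2 fold change was -0.24 in the authors' deposited table (implied 95% bounds -0.48 and 0.01, adjusted p = 0.374). Cd36 had implied levels of 1793 normalized counts in GNAQ R183Q skin and 1574 in wild-type skin, with a log2 fold change of 0.19 (authors' deposited table, implied 95% bounds -0.23 and 0.60, adjusted p = 0.740). Its wild-type z-scores had a mean of -0.305 and a median of 0.223 in the authors' deposited table, so at least 1 wild-type library lay at -1.89 or lower. Whether it was the same library as for Zfp423 cannot be read from group means.

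Fabp4, a classical target of Pparg in fat cells, had the widest implied interval of the 8. Its implied levels were 384 normalized counts in GNAQ R183Q skin and 321 in wild-type skin. The log2 fold change was 0.26 in the authors' deposited table (implied 95% bounds -0.94 and 1.45, adjusted p = 0.899). The sign differed between measures: the mean z-score was -0.03 in GNAQ R183Q and 0.03 in wild-type libraries in the authors' deposited table, and the median in GNAQ R183Q was -0.453. These values require at least 1 GNAQ R183Q library at a z-score of 1.24 or more. The implied SE of its fold change, 0.610, was above that of 99.9% of 2415 genes within 1.5-fold of its average expression, whose median was 0.178. For Ebf2 the implied SE of 0.398 exceeded that of 96.8% of such neighbours, and for Cd36 88.1%. For Zfp423 the share was 78.3% and for Cebpa 72.9%. For Pparg, Cebpb and Lpl it was 36.3%, 10.2% and 20.9%.

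**Figure D3:**
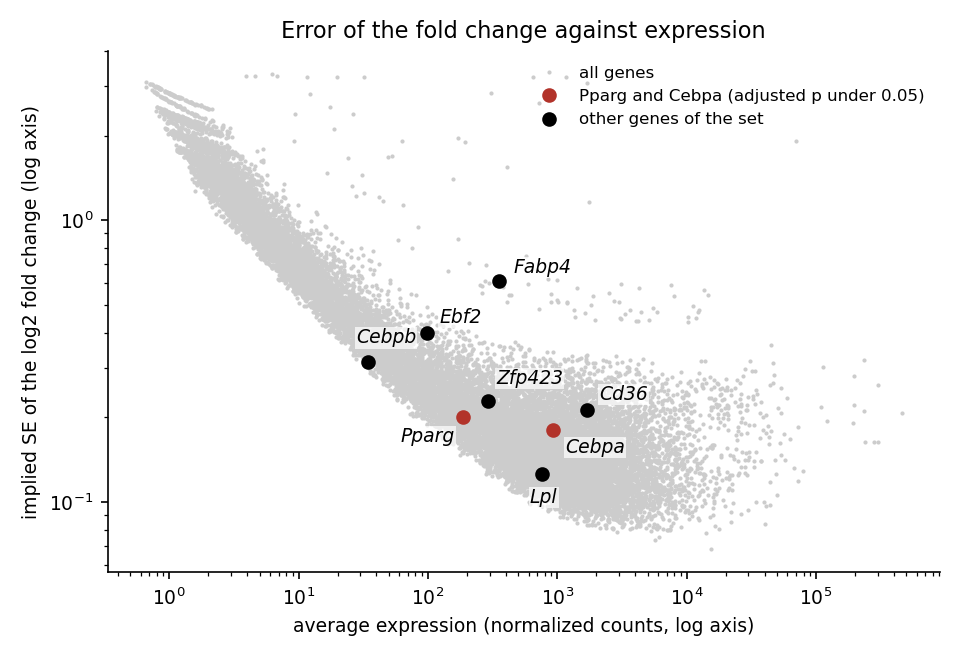
Implied SE of the log2 fold change (vertical, log axis) against average expression in normalized counts (horizontal, log axis) for all 20152 genes in grey, with the 8 genes named. Fabp4, at 0.610, stands above nearly all genes of like expression, while Lpl and Pparg lie within the main band.

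Per kilobase of transcript, the average expression of both genotypes together followed the order Cd36, Fabp4, Cebpa, Lpl, Pparg, Zfp423, Cebpb and Ebf2. The values ran from 495 normalized counts per kilobase for Cd36, through 393 for Fabp4, 352 for Cebpa, 186 for Lpl, 87.6 for Pparg and 59.4 for Zfp423, to 23.0 for Cebpb and 18.9 for Ebf2. Lengths are those of the longest transcript in GENCODE vM21. Differences between neighbours were set against an implied error taken from the genotype p-values, since no spread between libraries was available. Neighbours in this order did not differ beyond this error for Cd36 and Fabp4, Fabp4 and Cebpa, and Cebpb and Ebf2. The other 4 neighbouring pairs did. The order was not the same in each genotype. Cebpa stood at an implied 273 normalized counts per kilobase in GNAQ R183Q skin, below Fabp4 at 428. In wild-type skin Cebpa stood at 430, above Fabp4 at 358. These genes did not differ beyond the implied error in either genotype. Pparg, at 65.6 in GNAQ R183Q skin, did not differ from Zfp423 at 59.2 beyond the implied error. In wild-type skin Pparg at 110 was above Zfp423 at 59.5 beyond it.

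Genes around these regulators were read from 9 lists of adipogenic and lipid handling genes, of which 142 different genes had a row. Of these 10 fell and 1 rose, or 7.04% and 0.704%, against 2.46% and 0.63% over all genes. Their median log2 fold change was -0.13, against 0.01 over all genes. By list the medians were -0.15 for family relatives, -0.10 for other adipogenic factors, -0.00126 for factors that restrain adipogenesis, 0.01 for progenitor markers, -0.28 for droplet and lipolysis genes, -0.13 for triglyceride synthesis and for lipase control and uptake, and -0.16 for white and for brown fat cell genes. Of 19 measured relatives of the 9 genes, which include other C/EBP, PPAR, FABP, perilipin and EBF genes, 0 passed by DESeq2 and 0 reached an unadjusted p of 0.05. Over all genes 8.23% were lower and 5.94% higher at that unadjusted p. In lists of 13 to 20 genes, 0 or 1 gene past the adjusted threshold lies near the shares over all genes. Cebpd, the companion of Cebpb early in adipogenesis, had the smallest p, with a log2 fold change of -0.87 (authors' deposited table, adjusted p = 0.359), at 0.880 CPM. The most abundant relative was Fabp5, the fatty acid binding protein of epidermis, with a log2 fold change of -0.38 (authors' deposited table, adjusted p = 0.405).

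Among 20 other factors that promote adipogenesis 1 fell (5%) and 0 rose, against 2.46% and 0.63% over all genes. The 1 that fell was Klf5, a Krüppel-like factor that acts with C/EBP proteins upstream of Pparg, at a log2 fold change of -0.53 (authors' deposited table, adjusted p = 0.00122). Rxra, which encodes a retinoid X receptor that pairs with PPARG on DNA and is singled out after its values were seen, had a log2 fold change of -0.29 (authors' deposited table, adjusted p = 0.0682). The glucocorticoid receptor gene Nr3c1, the most abundant of the list, had a log2 fold change of -0.12 (authors' deposited table, adjusted p = 0.698). Of 19 factors that restrain adipogenesis 0 passed by DESeq2, with 3 lower and 2 higher at an unadjusted p of 0.05. Over all genes 8.23% were lower and 5.94% higher at that unadjusted p. Gata2 had the smallest p, with a log2 fold change of -0.65 (authors' deposited table, adjusted p = 0.122). Dlk1, the preadipocyte inhibitor also called Pref-1, had a log2 fold change of -0.17 (authors' deposited table, adjusted p = 0.733).

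Progenitor markers held 3 falls (15.8%) and 0 rises among 19 genes, against 2.46% and 0.63% over all genes. In the authors' deposited table the log2 fold changes of the 3 were -1.99 for F3 (adjusted p = 8.03e-11), -0.64 for Dpp4 (adjusted p = 0.00127) and -2.45 for Pi16 (adjusted p = 0.0180), a gene at 0.554 CPM. F3 marks a fat-restraining stromal population, and Dpp4 and Pi16 mark early interstitial progenitors. The list as a whole had 9 negative and 10 positive log2 fold changes, with a median of 0.01. Its summed implied levels were 46571 normalized counts in GNAQ R183Q skin and 43274 in wild-type skin. Mest, the most abundant of the list, had a log2 fold change of 0.16 (authors' deposited table, adjusted p = 0.566). Of 13 measured mature white fat cell genes 0 passed by DESeq2, and 5 were under 1 CPM. At an unadjusted p of 0.05, 3 were lower and 0 higher, against 8.23% and 5.94% over all genes. Adipoq, Lep, Retn, Cfd, Pck1 and Cidec of that list were not analysed here. Its smallest p belonged to Acly, the enzyme that supplies cytosolic acetyl-CoA for lipid synthesis, with a log2 fold change of -0.30 (authors' deposited table, adjusted p = 0.109). Of 13 brown fat genes 0 passed by DESeq2 and 0 reached an unadjusted p of 0.05, and 7 were under 1 CPM. Cidea, a lipid droplet protein, had the smallest p, at a log2 fold change of -0.91 (authors' deposited table, adjusted p = 0.407) and a level of 0.631 CPM. Zic1, the most abundant, had a log2 fold change of -0.09 (authors' deposited table, adjusted p = 0.847).

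Of 15 droplet and lipolysis genes 2 fell and 0 rose: Fitm1, which promotes droplet formation in muscle, at a log2 fold change of -0.94 with an authors' adjusted p of 0.00621, and Abhd5, the activator of the lipase ATGL that also serves epidermal barrier lipids, at -0.75 with 0.0429 in the authors' deposited table. Plin3, the most abundant droplet coat gene of the list, had a log2 fold change of -0.28 (authors' deposited table, adjusted p = 0.436). Of 15 triglyceride synthesis genes 3 fell and 0 rose. The share that fell was 13.3% for droplet and lipolysis genes and 20% for triglyceride synthesis. Over all genes 2.46% fell and 0.63% rose. Dgat2, which catalyses the last step of triglyceride synthesis, fell 2.42-fold in the authors' deposited table, or by 1.27 on the log2 scale (implied 95% bounds -1.64 and -0.90, adjusted p = 7.54e-09). Its implied levels were 618 normalized counts in GNAQ R183Q skin and 1495 in wild-type skin. Agpat3 and Agpat4, of the family of acyltransferases that make phosphatidic acid, fell too, and in the authors' deposited table Agpat3 had -0.47 on the log2 scale (adjusted p = 0.00132) and Agpat4 -0.58 (adjusted p = 0.0498).

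Of 20 genes of lipoprotein lipase control and fatty acid uptake 1 fell and 1 rose, against 2.46% and 0.63% over all genes. Acsl1, which activates long-chain fatty acids, fell, with implied levels of 2701 normalized counts in GNAQ R183Q skin and 5181 in wild-type skin. Its log2 fold change was -0.94 in the authors' deposited table (implied 95% bounds -1.23 and -0.65, adjusted p = 1.16e-07). Vldlr, a receptor that takes up triglyceride-rich lipoproteins, rose at a log2 fold change of 0.69 (authors' deposited table, adjusted p = 0.0204). Its implied levels were 918 normalized counts in GNAQ R183Q skin and 569 in wild-type skin. Once fold changes were corrected for transcript length and GC, Fitm1, Agpat4 and Vldlr lost their calls, and Acsl4 and Ddit3, named after their values were seen, gained one.

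**Figure D4:**
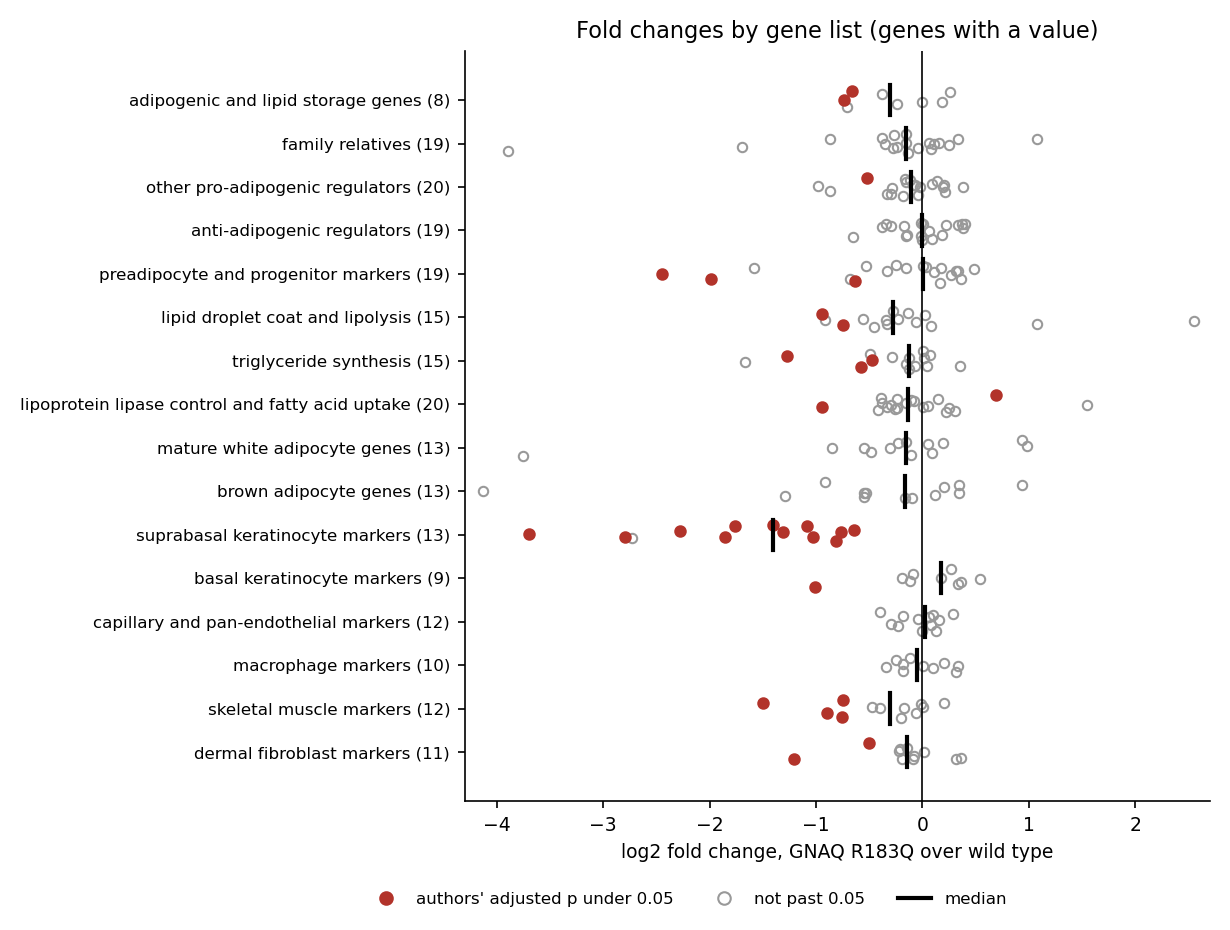
Log2 fold change (horizontal axis, GNAQ R183Q over wild type) for each measured gene of each list (number of genes in parentheses), red where the authors' adjusted p was under 0.05, with the list median as a black bar. The 8 adipogenic and lipid storage genes have a median of -0.31 and the suprabasal keratinocyte markers -1.41.

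Markers of other cell types that can express these genes were read beside them. Where 2.46% of all genes fell and 0.63% rose, 12 of 13 suprabasal keratinocyte markers fell and 0 rose. Among them were Lor at a log2 fold change of -3.70, Krt77 at -2.28, Sbsn at -1.76 and Dmkn at -1.41 in the authors' deposited table. The part of these cells in the falls of F3, Klf5, Abhd5, Dgat2 and Acsl1 was not tested. Of 9 basal keratinocyte markers Krt15 fell by 1.01 on the log2 scale in the authors' deposited table. The list's median was 0.18, with 4 negative and 5 positive log2 fold changes. Its summed implied levels were 62156 in GNAQ R183Q and 70881 in wild-type skin, of which Krt15 alone held 7556 and 15256. Of 12 skeletal muscle markers 4 fell and 0 rose, Ckm at -1.50, Tnni2 at -0.74, Myf6 at -0.90 and Tnnt3 at -0.76 on the log2 scale in the authors' deposited table, with summed implied levels of 32374 in GNAQ R183Q and 36459 in wild-type skin. Their part in the fall of Fitm1 was not tested. Of 11 dermal fibroblast markers 2 fell and 0 rose, Mfap5 at a log2 fold change of -1.21 and Dpt at -0.50 in the authors' deposited table. The list's median was -0.15, with 8 negative and 3 positive log2 fold changes. Summed implied levels were 267298 in GNAQ R183Q and 297162 in wild-type skin. The most abundant of the list, Col3a1, Col1a2 and Col1a1, did not pass by DESeq2 (adjusted p = 0.828, 0.804 and 0.847).

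Over all genes 3.09% passed the DESeq2 threshold, and 8.23% were lower and 5.94% higher at an unadjusted p of 0.05. Capillary and pan-endothelial markers, 12 genes, and macrophage markers, 10 genes, had 0 members past the DESeq2 threshold and 0 at an unadjusted p of 0.05. Their medians were 0.03 and -0.05. Summed implied levels of the endothelial markers were 10637 normalized counts in GNAQ R183Q skin and 10547 in wild-type skin, and those of the macrophage markers were 8129 and 7911 in the same order. Their smallest p belonged to Cldn5, at a log2 fold change of -0.30 with an authors' adjusted p of 0.442, and to C1qb, at -0.34 with 0.403 in the authors' deposited table. The spread of these sums over libraries was not analysed here.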

How the data were processed

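Back skin RNA of 4 GNAQ R183Q and 4 wild-type embryo samples at E14.5 was sequenced from stranded TruSeq libraries of total RNA, per the labels' protocols. Per the submitters' processing notes the tools include DESeq2 and the genome build mm39, with no version given. No aligner, read counter, annotation, filter or fitted model is named in the sources used here.

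Per the file headers, the average expression column holds 1 signal value per gene, which the authors took over their libraries, read here as normalized counts, since it is not whole and sums to 2.68e+07, so that 1 CPM equals 26.8 units. The log2 fold change, the p-value and the adjusted p-value are the authors', and Benjamini-Hochberg adjustment of the deposited p-values gave the adjusted values back. The z-scores are scores of log2 CPM that the authors averaged per genotype, per the file headers. Depth is unknown, so no counting interval or floor is given. P-values test a difference between genotypes against the variation among these samples, and are not a measure of that variation.

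The implied SE is the absolute log2 fold change over the normal quantile of the p-value, and the implied 95% interval follows from it. Implied levels split the average by the fold change with equal group sizes. The SE of a log2 level was taken as this SE divided by 2 over all libraries, and by the square root of 2 within a genotype. For a pair of genes these errors were combined as independent, although both genes were measured in the same libraries. Overlap was decided from group means and medians of the z-scores, whose 8 squares sum to 7, a total that no gene contradicted. A linear model with 6 residual degrees of freedom was rebuilt from the mean z-scores. Transcript length and GC came from GENCODE vM21 (GRCm38) by symbol, for 87.5% of genes and 95.2% of called genes. Scripts ran in Python 3.11.15 with numpy 2.4.6, pandas 2.3.3 and scipy 1.17.1, and were tested on simulated data.

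The genes and lists were chosen with earlier results of these data known. The text names every gene of the set. It also names, from each of the 9 lists of related genes, the called ones or else the smallest p, and the most abundant one. From each of the 6 marker lists it names up to 4 called ones or the smallest p.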

Additional observations from a re-analysis of the deposited data

How the results depend on the processing

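The fall of Pparg and Cebpa was called in both genes with a fold minimum of 1.5, with genes under 1 CPM left out, and after centring on the median of all genes. The fold minimum could not remove either call, since the folds were 1.67 and 1.58. Pparg at 6.96 CPM and Cebpa at 34.5 CPM kept the same p-values without genes under 1 CPM, so only the adjustment changed. That filter called 528 lower and 142 higher among 14353 genes. Centring moved fold changes little, as the median of all genes was 0.01, and it called 521 lower and 123 higher genes in the table. With the length and GC trend removed, 1 of the 8 genes was called lower, Pparg. That setting called 395 lower and 167 higher among 17631 genes with a length and GC. At a threshold of 0.01, under Holm adjustment and in the linear model rebuilt from z-scores, 0 of the 8 genes were called lower. At 0.01 the whole table had 331 genes called lower and 55 higher, and the related lists 7 lower and 0 higher. With the fold minimum the whole table had 409 lower and 82 higher. Holm adjustment left 168 lower and 10 higher genes in the table, and 3 lower and 0 higher in the related lists. The rebuilt model called 0 genes of any kind, with 1311 lower and 1170 higher at an unadjusted p of 0.05, among them 3 lower genes of the set, and a smallest adjusted p of 0.0503. Its adjusted p were 0.209 for Pparg and 0.240 for Cebpa, with mean z-score differences of -1.62 and -1.58. The sign turned for Fabp4, at 0.26 on the log2 scale in the authors' deposited table but a z-score difference of -0.0568 in that model, and for Zfp423, at -0.01 in that table but a z-score difference of 0.14 and a log2 fold change of 0.0258 after trend removal. The cause of these differences was not tested. No paired analysis was possible because the table holds group values only, and leaving out single replicates was not run for the same reason. Unknown depth and high spread limit what Fabp4 and Ebf2 can show.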
